A study of Rattus norvegicus with 9 samples.

Results

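Atf4 and 9 genes of the integrated stress response and the unfolded protein response were followed through RNA sequencing of rat ileum after gastric bypass. They were found by gene symbol in both deposited tables, and all 10 of 10 were present among the 17120 genes that each table lists under a usable symbol. Of the 10 genes, 6 form the ATF4 arm (Atf4, Ddit3, Trib3, Asns, Chac1 and Sesn2) and 4 the endoplasmic reticulum (ER) folding arm (Hspa5, Dnajb9, Herpud1 and Sdf2l1). When the eIF2 alpha kinases sense ER stress, amino acid shortage, double-stranded RNA or haem shortage, general protein synthesis slows while the ATF4 messenger RNA is translated more, and the ATF4 protein then switches on genes for amino acid supply and for stress output. ER stress also acts through IRE1 with XBP1 and through ATF6, which raise chaperones and degradation factors of the ER. Secretory cells of the intestinal crypt, such as Paneth and goblet cells, depend on these pathways for their high output of folded protein.

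All animals were OLETF rats (Otsuka Long-Evans Tokushima fatty), which become obese and diabetic and lack the working CCK1 receptor for cholecystokinin. Ileum was taken 1 month after the operation from 3 groups with 3 labelled samples each: Roux-en-Y gastric bypass (RYGB) with FDG decreased, RYGB with FDG increased, and a sham operation. The labels do not spell out FDG, and they do not say whether replicates are separate animals, so p-values measure the spread between these samples, which may in part be technical. Values come in 2 tables of 6 columns, each with its own scaling. The one called the RYGB table here holds FDG-decreased and FDG-increased ileum, and the sham table holds FDG-increased and sham ileum. Values are FPKM, fragments per length of transcript and per mapped fragments of the library. FPKM sums ran from 465697 to 864511 per column, and read depth is unknown, so no counting interval can be given.

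Some columns need to be known before the values are read. FDG-increased columns 1 and 2 of the RYGB table are FDG-increased columns 2 and 3 of the sham table multiplied by a constant, so the 12 columns hold 10 distinct libraries and 4 distinct FDG-increased ones. The comparisons therefore share libraries: FDG increased is set against FDG decreased in one table and against sham in the other. In the RYGB table, libraries with the same replicate number deviated together from their group means (correlations of 0.85, 0.76 and 0.77), and values are given by pair as well. Sham replicate 1 stood apart in ileal enterocyte markers, whose summed level was 249 FPKM there and between 8696 and 11853 FPKM in the other sham libraries. The same library was high in proximal intestine markers (436 FPKM, against 62 and 31.6 FPKM in the other sham libraries) and in enterocyte markers (15409 FPKM, against 4599 and 5112 FPKM), so the main results on sham are also given without it. Sham replicate 2 was high in adipocyte markers, at 472 FPKM beside 63.1 and 149 FPKM. By the labels, FDG-decreased libraries 1, 2 and 3 were run in lanes 7, 4 and 5, FDG-increased libraries 1, 2 and 3 in lanes 7, 4 and 4, and all 3 sham libraries in lane 7. Lane and group can therefore be told apart only in part against sham, and pair 3 is split between lanes. The scaling matters in the sham table: the median log2 difference of all genes was 0.13 there, with 64.7% of genes higher in FDG-increased ileum. It became 0.00 (50.2% higher) when the columns were set to the same median, and -0.02 (46.9% higher) with quantile normalization.

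Promoters of 6 of the genes are shown: Hspa5, Herpud1, Trib3 and Chac1 because they hold known response elements of the arms, Atf4 because it heads its arm, and Dnajb9 because it is the member called in a paired test. The windows are RefSeq sequence of the rat build GRCr8, each running from 250 bases before to 50 bases after the gene's start, 5' to 3' on the gene's strand. They lie at chr3:38452766-38453065 on the plus strand for Hspa5, chr19:10614658-10614957 on the minus strand for Herpud1, chr3:161275484-161275783 on the minus strand for Trib3, chr3:126795881-126796180 on the plus strand for Chac1, chr7:113684431-113684730 on the plus strand for Atf4 and chr6:67002002-67002301 on the minus strand for Dnajb9. Capitals mark matches to the elements searched, on either strand.
Hspa5: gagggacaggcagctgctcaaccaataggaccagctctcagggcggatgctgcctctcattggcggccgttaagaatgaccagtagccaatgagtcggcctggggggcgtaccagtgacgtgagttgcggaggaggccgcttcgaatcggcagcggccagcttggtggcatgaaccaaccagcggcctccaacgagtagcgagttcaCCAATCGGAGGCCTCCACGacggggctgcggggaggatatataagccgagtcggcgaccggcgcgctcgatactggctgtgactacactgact
Herpud1: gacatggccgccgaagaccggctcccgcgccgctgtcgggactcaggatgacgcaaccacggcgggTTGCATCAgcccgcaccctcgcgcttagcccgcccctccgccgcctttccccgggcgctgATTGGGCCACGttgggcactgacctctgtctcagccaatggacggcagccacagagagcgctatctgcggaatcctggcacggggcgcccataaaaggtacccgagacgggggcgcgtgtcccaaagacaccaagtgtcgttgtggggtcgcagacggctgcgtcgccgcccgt
Trib3: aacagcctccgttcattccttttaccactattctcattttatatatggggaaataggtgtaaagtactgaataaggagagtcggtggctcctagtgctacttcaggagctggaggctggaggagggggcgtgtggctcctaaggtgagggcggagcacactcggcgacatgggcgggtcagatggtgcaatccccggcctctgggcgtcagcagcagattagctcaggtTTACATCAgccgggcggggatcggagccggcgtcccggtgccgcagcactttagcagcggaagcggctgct
Chac1: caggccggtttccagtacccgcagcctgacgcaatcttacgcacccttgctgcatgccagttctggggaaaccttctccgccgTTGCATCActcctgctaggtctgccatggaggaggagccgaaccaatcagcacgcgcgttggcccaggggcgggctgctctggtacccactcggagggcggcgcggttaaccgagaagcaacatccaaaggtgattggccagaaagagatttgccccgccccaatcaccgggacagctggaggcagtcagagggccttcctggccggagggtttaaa
Atf4: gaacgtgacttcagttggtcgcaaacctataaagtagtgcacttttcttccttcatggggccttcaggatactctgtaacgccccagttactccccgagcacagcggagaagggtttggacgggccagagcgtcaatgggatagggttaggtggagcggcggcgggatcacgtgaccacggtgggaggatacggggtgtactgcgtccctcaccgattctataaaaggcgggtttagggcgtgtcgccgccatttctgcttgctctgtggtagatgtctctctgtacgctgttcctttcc
Dnajb9: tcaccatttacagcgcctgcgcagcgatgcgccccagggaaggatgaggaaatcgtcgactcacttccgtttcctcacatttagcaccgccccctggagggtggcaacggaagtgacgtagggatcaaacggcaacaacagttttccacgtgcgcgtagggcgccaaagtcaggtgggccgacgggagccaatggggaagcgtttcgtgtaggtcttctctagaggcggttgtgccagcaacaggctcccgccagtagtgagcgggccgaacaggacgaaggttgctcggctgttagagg

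The capitals in Trib3, Chac1 and in the first run of Herpud1 are matches on the minus strand to TGATGNAA, the C/EBP-ATF response element that ATF4 binds with C/EBP partners. It occurred in 3 of the 10 promoters, against 3.98% of the 33469 rat promoter windows of the same length. Hspa5 held the ER stress response element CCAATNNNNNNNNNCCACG from 43 to 25 bases before its start, an element found in 0.0657% of promoters. Herpud1 held its second form, ATTGGNCCACG, from 124 to 114 bases before the start, and 0.0508% of promoters held that one. TGACGTGG, the unfolded protein response element, was in none of the 10 windows and in 0.595% of all promoters. The elements were searched on both strands and no matches overlapped. These matches describe letters in a window, and no match in a window says nothing about the factor.

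Among the libraries that each comparison held, Atf4 was the member whose groups did not overlap in any of the comparisons. It encodes the transcription factor at the head of the arm. FDG-decreased libraries 1, 2 and 3 had 220, 277 and 204 FPKM, and FDG-increased libraries 1, 2 and 3 of the same table had 278, 372 and 288 FPKM. All FDG-decreased libraries lay below all FDG-increased ones, although the nearest 2, at 277 and 278 FPKM, almost touched. In the sham table, Atf4 had 212, 284 and 379 FPKM in the FDG-increased libraries, against 162, 141 and 125 FPKM in the sham libraries. All FDG-increased libraries were above all sham libraries there. The library at 212 FPKM, which only the sham table holds, lay within the FDG-decreased range of 209 to 283 FPKM on that table's scale. The separation of Atf4 between FDG-decreased and FDG-increased ileum therefore holds for the libraries of the RYGB table only.

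The tests on Atf4 did not reach the threshold, an adjusted p of 0.05. Atf4 averaged 234 ± 38.4 FPKM in FDG-decreased and 313 ± 51.4 FPKM in FDG-increased ileum (SD, n = 3 each). The difference on the log2(FPKM + 1) scale was -0.42 (SE 0.34, 95% interval -1.21 to 0.37), with a limma adjusted p of 1 after Benjamini-Hochberg adjustment over 10739 genes. With the replicate pairs as a block the same difference had an SE of 0.128 and a limma adjusted p of 0.237. The FDG-decreased library of each pair held 0.792, 0.746 and 0.709 of the Atf4 level of its FDG-increased partner. Against sham, Atf4 averaged 292 ± 83.6 FPKM in FDG-increased and 143 ± 19 FPKM in sham ileum (SD, n = 3 each), 2.05-fold. The log2 difference was 1.00 (SE 0.339, 95% interval 0.23 to 1.76), with a limma adjusted p of 0.552 by Benjamini-Hochberg over 10801 genes. It was 1.09 without sham replicate 1, 0.87 with columns at the same median and 0.57 with quantile normalization. In bulk tissue, fewer cells of a type and less RNA per cell cannot be told apart, here and in all that follows. On the scale of the sham table, FDG-decreased ileum had 209 to 283 FPKM of Atf4, above the 125 to 162 FPKM of sham ileum. These levels in tables of separate scaling were set on one scale by the shared libraries (factor 1.0217) and were not tested.

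**Figure D1:**
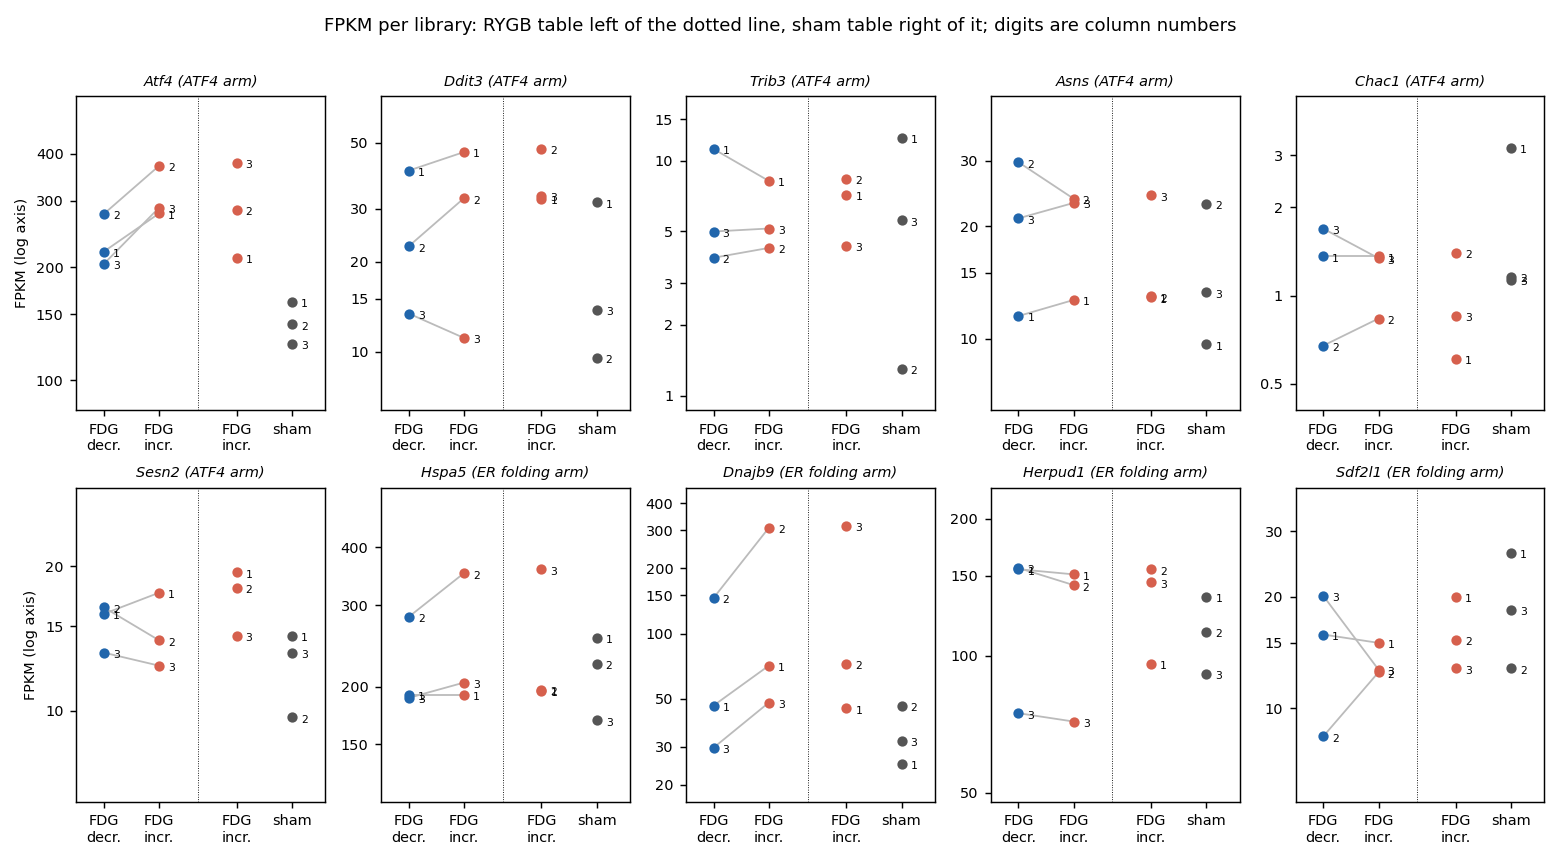
FPKM of the 10 genes in each column of the RYGB and sham tables (log axis), 1 panel per gene. Points are libraries, labelled by replicate or column number, and grey lines join the pairs of the RYGB table. Atf4 is the 1 gene whose groups do not overlap in either table, while Dnajb9 spans 25.1 to 314 FPKM in the sham table.

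Ddit3 encodes CHOP, a transcription factor downstream of ATF4 that is known for its part in cell death under ER stress. FDG-decreased libraries 1, 2 and 3 had 40.3, 22.5 and 13.4 FPKM, and their FDG-increased partners 46.5, 32.6 and 11.1 FPKM. Library 1 was the highest and library 3 the lowest in both groups, which overlapped widely. In the sham table, Ddit3 had 32.5, 47.6 and 33.2 FPKM in FDG-increased ileum, against 31.6, 9.54 and 13.8 FPKM in sham ileum. The groups did not overlap, by a margin of less than 1 FPKM between 32.5 and sham replicate 1 at 31.6.

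The Ddit3 difference was -0.16 for FDG decreased against FDG increased (SE 0.588, limma adjusted p of 1 by Benjamini-Hochberg). For FDG increased against sham it was 1.15 (SE 0.417, 95% interval 0.21 to 2.09, limma adjusted p of 0.581 by Benjamini-Hochberg), and 1.61 without sham replicate 1. The fourth FDG-increased library, which only the RYGB table holds, had 11.4 FPKM on the scale of the sham table. It lay within the sham range of 9.54 to 31.6 FPKM, so the separation of Ddit3 from sham holds for the 3 libraries of the sham table only.

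Trib3, Asns, Chac1 and Sesn2, further targets of ATF4, overlapped between groups in both tables. Trib3 encodes a pseudokinase that ATF4 and CHOP induce. It had 11.2, 3.86 and 4.99 FPKM in FDG-decreased and 8.19, 4.25 and 5.14 FPKM in FDG-increased libraries. Beside sham, Trib3 had 7.14, 8.38 and 4.34 FPKM in FDG-increased libraries, against 12.5, 1.3 and 5.57 FPKM in sham libraries. Sham replicates 1 and 2 were thus the highest and the lowest of all libraries for this gene. The log2 differences were 0.09 for FDG decreased against FDG increased and 0.33 for FDG increased against sham, the second being 0.93 without sham replicate 1 and -0.34 without sham replicate 2.

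Asns encodes asparagine synthetase. It had 11.5, 29.7 and 21 FPKM in FDG-decreased and 12.7, 23.7 and 23.1 FPKM in FDG-increased libraries. Its sham table values were 12.9, 13 and 24.2 FPKM in FDG-increased libraries and 9.65, 23 and 13.3 FPKM in sham libraries. Each group held low and high libraries, and the log2 differences were 0.02 for FDG decreased against FDG increased and 0.14 for FDG increased against sham, the second turning to -0.02 with quantile normalization.

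Sesn2, an inhibitor of mTORC1 that senses leucine, had 15.9, 16.4 and 13.2 FPKM in FDG-decreased and 17.6, 14 and 12.4 FPKM in FDG-increased libraries. Its level was 19.4, 18 and 14.3 FPKM in FDG-increased libraries of the sham table and 14.3, 9.69 and 13.2 FPKM in sham libraries. The log2 differences were 0.05 for FDG decreased against FDG increased and 0.45 for FDG increased against sham (SE 0.26, limma adjusted p of 0.719 by Benjamini-Hochberg). Chac1, which breaks down glutathione, was the least abundant member, close to the mean of 1 FPKM below which genes were not tested. All 10 members passed that filter in both tables. It had 1.36, 0.675 and 1.69 FPKM in FDG-decreased and 1.36, 0.835 and 1.34 FPKM in FDG-increased libraries. In the sham table it had 0.61, 1.4 and 0.852 FPKM in FDG-increased libraries, against 3.18, 1.16 and 1.13 FPKM in sham libraries. Chac1 was the 1 gene of the arm with a lower mean in FDG-increased than in sham ileum, at a log2 difference of -0.48 (SE 0.314, limma adjusted p of 0.759 by Benjamini-Hochberg). Without sham replicate 1, which had 3.18 FPKM, the difference was -0.15, and Asns was then lower too, at -0.13.

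Levels of Ddit3, Trib3, Asns and Sesn2 relative to Atf4 overlapped between groups in both tables, and those of Chac1 did so in the RYGB table only. The ratio of Ddit3 to Atf4 FPKM ran from 0.0656 to 0.183 in FDG-decreased libraries and from 0.0387 to 0.167 in FDG-increased libraries of the RYGB table. It ran from 0.0876 to 0.167 in FDG-increased libraries of the sham table and from 0.0677 to 0.194 in sham libraries. Asns over Atf4 was 0.0457 to 0.0637 in FDG-increased libraries of the sham table and 0.0594 to 0.163 in sham libraries. Chac1 over Atf4 was 0.00225 to 0.00491 in FDG-increased libraries of the sham table and 0.00823 to 0.0196 in sham libraries, without overlap, in a ratio that also carries the difference of Atf4 itself.

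In the ER folding arm, the groups of Hspa5 and Herpud1 overlapped in both tables. Hspa5 encodes BiP, the main chaperone of the ER lumen and a sensor of unfolded protein. It had 192, 283 and 189 FPKM in FDG-decreased and 192, 352 and 204 FPKM in FDG-increased libraries. Set against sham, Hspa5 had 196, 197 and 359 FPKM in FDG-increased libraries, against 255, 224 and 169 FPKM in sham libraries. A single FDG-increased library, at 359 FPKM, was above the sham range and the others were inside it. The log2 differences were -0.14 (SE 0.395, 95% interval -1.06 to 0.78) for FDG decreased against FDG increased and 0.17 (SE 0.366, 95% interval -0.66 to 1.00) for FDG increased against sham. The second was -0.26 with quantile normalization and -0.12 without FDG-increased column 3. The limma adjusted p by Benjamini-Hochberg was 1 for FDG decreased against FDG increased and 0.94 for FDG increased against sham.

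Herpud1 encodes an ER membrane protein of the degradation machinery. It had 155, 156 and 74.8 FPKM in FDG-decreased and 151, 143 and 71.7 FPKM in FDG-increased libraries. Its level was 96, 155 and 145 FPKM in FDG-increased libraries of the sham table and 135, 113 and 91.2 FPKM in sham libraries. Library 3 was the lowest in both groups of the RYGB table. The log2 differences were 0.07 for FDG decreased against FDG increased and 0.21 for FDG increased against sham, or -0.17 with quantile normalization. Sdf2l1, an ER lumen protein that works with BiP and its J-domain partners, had 15.8, 8.39 and 20.1 FPKM in FDG-decreased and 15, 12.5 and 12.7 FPKM in FDG-increased libraries. It had 20, 15.3 and 12.8 FPKM in FDG-increased libraries of the sham table, against 26.2, 12.8 and 18.4 FPKM in sham libraries. The groups overlapped, with log2 differences of 0.05 for FDG decreased against FDG increased and -0.20 for FDG increased against sham, or 0.04 without sham replicate 1.

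Dnajb9 was the member with the widest spread. It encodes ERdj4, a J-domain partner of BiP and a classic target of spliced XBP1. It had 46.5, 146 and 29.7 FPKM in FDG-decreased libraries 1, 2 and 3, and 71.1, 308 and 48 FPKM in their FDG-increased partners. Within each pair the FDG-decreased library was lower, at 0.655, 0.475 and 0.619 of its partner, while the groups as a whole overlapped because replicate 2 was high in both. The log2 difference of -0.78 had an SE of 0.819 and a limma adjusted p of 1 by Benjamini-Hochberg without the block. With the pairs as a block the SE was 0.142, the 95% interval -1.09 to -0.47, and the limma adjusted p 0.0283 by Benjamini-Hochberg. Dnajb9 thus fell in FDG-decreased ileum in the paired fit. That call was lost with the block and no filter on low values (adjusted p of 0.128 by limma), with the block and quantile normalization (0.0618) and with the block without pair 1 (0.203).

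Against sham, Dnajb9 had 45.1, 72.7 and 314 FPKM in FDG-increased libraries and 25.1, 46.3 and 31.9 FPKM in sham libraries. The groups overlapped at 45.1 and 46.3 FPKM. The log2 difference was 1.57 (SE 0.642, 95% interval 0.12 to 3.03, limma adjusted p of 0.626 by Benjamini-Hochberg). FDG-increased column 3 decided its size: without that column it was 0.76, and without sham replicate 1 it was 1.38. Relative to Hspa5, Dnajb9 stood at 0.242, 0.517 and 0.157 in FDG-decreased libraries and at 0.37, 0.875 and 0.236 in their FDG-increased partners. The ratio was 0.23 to 0.875 in FDG-increased libraries of the sham table and 0.0984 to 0.206 in sham libraries.

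Counted over all 10 genes, FDG-decreased against FDG-increased ileum gave 6 higher and 4 lower, beside 55.2% higher and 44.8% lower among all genes tested. The ATF4 arm had a median log2 difference of 0.02 and the ER folding arm one of -0.04, beside a median of 0.02 over all genes tested. None was called by limma at an adjusted p of 0.05, and neither was any other gene (0%). Unadjusted, 110 of the 10739 genes had a limma p under 0.05 and no member did. With the replicate block 1 of 10 was called lower, Dnajb9, against 0.689% of all genes. Atf4 was the 1 member with all FDG-decreased libraries below all FDG-increased ones of the RYGB table, a pattern of 1.26% of genes. Atf4, Hspa5 and Dnajb9 were lower in all 3 pairs, as were 12.7% of genes. Herpud1 was higher in all 3 pairs, at 1.03, 1.09 and 1.04 of the FDG-increased library. The share of all genes higher in all 3 pairs was not counted. For Hspa5 pair 1 was almost level, at 0.998 of the FDG-increased library.

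For FDG increased against sham, 8 of 10 genes were higher and 2 lower, Chac1 and Sdf2l1. The median log2 difference was 0.39 in the ATF4 arm and 0.19 in the ER folding arm, beside 0.13 over all genes, of which 64.7% were higher. Without sham replicate 1 the ATF4 arm median was 0.74. With quantile normalization the ATF4 arm median was 0.33 and the ER folding arm turned to -0.22, with 1 of 4 genes higher. The ER folding arm median was 0.32 without sham replicate 1 (4 of 4 higher), 0.37 without FDG-increased column 1, 0.03 without FDG-increased column 3 and 0.04 without sham replicate 3. No member was called, against 4 genes in all (0.037%). Atf4, Ddit3 and Dnajb9 had an unadjusted limma p under 0.05 and were higher, as were 6.15% of genes. Atf4 and Ddit3 had all FDG-increased libraries above all sham libraries, which held for 10.7% of genes. For FDG decreased against sham, on 1 scale and with no test, the medians were 0.37 in the ATF4 arm and 0.11 in the ER folding arm. There Atf4 was the 1 member with every FDG-decreased library above every sham library, against 3.43% of genes.

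**Figure D2:**
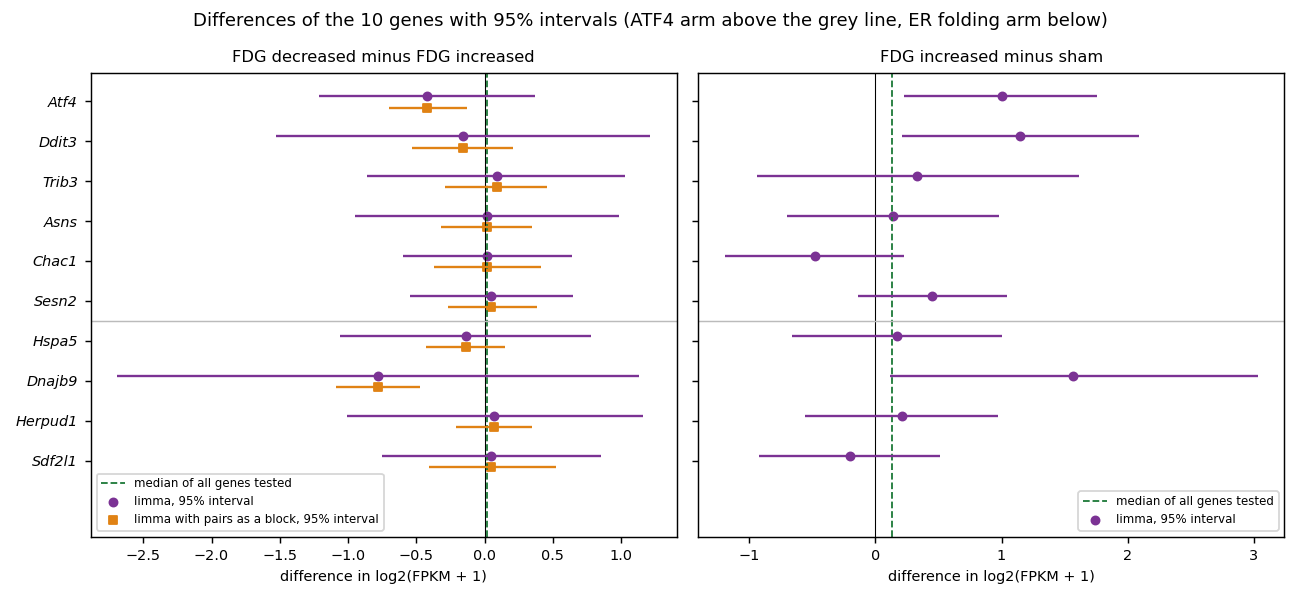
Log2 difference of log2(FPKM + 1) with 95% intervals for each gene, for FDG decreased against FDG increased (without and with the replicate block) and for FDG increased against sham. The paired interval of Dnajb9 runs from -1.09 to -0.47, and the intervals of Atf4, Ddit3 and Dnajb9 lie above 0 against sham although no adjusted p is under 0.05.

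Over the 10 distinct libraries, the members differed in how widely they ranged. The highest library held 12.5 times the lowest for Dnajb9, 9.57 times for Trib3, 5.22 times for Chac1 and 4.98 times for Ddit3. The range was 2 times for Sesn2, 2.12 times for Hspa5 and 2.17 times for Herpud1. Across the 6 columns of each table, Dnajb9 followed Atf4 with a Pearson correlation of 0.87 in the RYGB table and 0.86 in the sham table, and Hspa5 with 0.95 and 0.72. Among the members of its own arm, the correlation with Atf4 was 0.20 and 0.75 for Ddit3 and -0.45 and 0.17 for Trib3. Of the 10652 genes tested in both tables, Gtl3, Ppp1r3b and Akirin1 had the patterns most like that of Atf4, with correlations of at least 0.92 in each table. Alg5, Cmas and Dcun1d5 were most like Hspa5, with at least 0.97. These correlations are over columns that share libraries and scaling, and are given as descriptions.

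Among the tested eIF2 genes and the transcription factors beside ATF4, Atf3 and Ppp1r15a differed most in both comparisons. Of 16 genes for eIF2 alpha kinases, phosphatase subunits and eIF2 and its exchange factor, 7 were higher and 9 lower in FDG-decreased than in FDG-increased ileum, and 14 were higher and 2 lower in FDG-increased than in sham ileum, none called without the block. With quantile normalization 12 of the 16 were higher against sham. Ppp1r15a encodes GADD34, the ATF4-induced subunit that restores eIF2 alpha to its unphosphorylated form. It averaged 7.81 ± 3.89 FPKM in FDG-decreased and 23.7 ± 14.1 FPKM in FDG-increased ileum (SD, n = 3 each), and with the block it was called lower (log2 difference -1.38, limma adjusted p of 0.00422 by Benjamini-Hochberg, and 0.0612 without pair 1). Against sham Ppp1r15a averaged 30.6 ± 6.16 FPKM in FDG-increased and 8.52 ± 3 FPKM in sham ileum (log2 difference 1.76, limma adjusted p of 0.162 by Benjamini-Hochberg). All FDG-increased libraries of the sham table were above all sham libraries, as for 10.7% of genes. The FDG-increased library that only the RYGB table holds had 8.69 FPKM of Ppp1r15a there, within the sham range of 5.58 to 11.6 FPKM. Eif2ak4, the kinase GCN2, had a log2 difference of 0.21 for FDG decreased against FDG increased, and Eif2b2 one of 0.45 for FDG increased against sham.

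Atf3, a factor that ATF4 induces and that is also an immediate-early gene, passed the test. It averaged 109 ± 36.5 FPKM in FDG-increased and 7.03 ± 2.95 FPKM in sham ileum (SD, n = 3 each). It rose by 3.80 on the log2 scale (SE 0.378, limma adjusted p of 0.0306 by Benjamini-Hochberg). The call was lost with no filter on low values (adjusted p of 0.138 by limma) and with quantile normalization (0.0671). It was also lost without FDG-increased column 1 (0.0647) or 2 (0.0953) and without sham replicate 1 (0.082) or 2 (0.0994). Lane 7 alone leaves 1 FDG-increased column. There Atf3 differed by 3.42 on the log2 scale by the column numbers of the sham table and by 4.31 by those of the RYGB table. In the RYGB table it averaged 5.69 ± 3.03 FPKM in FDG-decreased and 88 ± 61.2 FPKM in FDG-increased ileum, a log2 difference of -3.51 with limma adjusted p of 1 without the block and 0.000366 with it. Of the 7 tested transcription factors beside ATF4, 6 were lower in FDG-decreased than in FDG-increased ileum and 6 were higher in FDG-increased than in sham ileum, with Atf3 as the call. The median of these factors against sham was 0.85, or 0.56 with quantile normalization. Cebpb differed by -0.81 in the RYGB table and Jdp2 by 1.08 in the sham table, neither of them called.

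Targets that serve amino acid supply were split between higher and lower. For FDG increased against sham, 8 of 16 tested were higher and 8 lower, with a median log2 difference of 0.01 beside 0.13 over all genes, and 6 of 16 were higher with columns at the same median. Slc7a5, a subunit of the leucine transporter, averaged 4.22 ± 0.422 FPKM in FDG-increased and 7 ± 0.466 FPKM in sham ileum, and Cth, cystathionine gamma-lyase, 166 ± 73 and 77.1 ± 21.5 FPKM in that order (SD, n = 3 each). The groups did not overlap for either gene, and neither was called. Of the 16 genes, 2 had all FDG-increased libraries above all sham libraries, beside 10.7% of all genes. All of them lay below for 1 gene, and the share of all genes with that pattern was not counted. For FDG decreased against FDG increased, 11 of 17 were higher (median 0.04), and Slc1a4 and Gpt2 had differences of -0.34 and -0.31. Of 13 transfer RNA synthetase genes, 5 were higher and 8 lower in FDG-increased than in sham ileum (median -0.06, or -0.25 with quantile normalization), among them Vars at -0.56 and Sars at 0.50. In FDG-decreased against FDG-increased ileum 9 of 13 were higher, with Vars at 0.24 and Yars at 0.20 (median 0.06). No gene of either list was called.

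The stress output targets were mixed. Of 11 tested, 6 were higher and 5 lower in FDG-increased than in sham ileum (median 0.39, or 0.14 with quantile normalization), none called. Gdf15, a secreted stress hormone, averaged 25.1 ± 15.7 FPKM in FDG-increased and 5.03 ± 3.16 FPKM in sham ileum, and Ddit4, an inhibitor of mTORC1, 7.48 ± 3.22 and 15.4 ± 5.09 FPKM in that order (SD, n = 3 each). In FDG-decreased against FDG-increased ileum 4 of 11 were higher (median -0.06). There Cdkn1a, the cell cycle inhibitor p21, averaged 34 ± 6.56 FPKM in FDG-decreased and 51.1 ± 3.21 FPKM in FDG-increased ileum, and Bbc3 differed by 0.47. Cdkn1a was the 1 gene of the 11 with all FDG-decreased libraries below all FDG-increased ones, a pattern of 1.26% of genes.

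No gene of the wider ER lists was called, and most of their directions against sham turned with the scaling. Among 23 ER chaperones and folding enzymes, 14 were higher in FDG-increased than in sham ileum (median 0.11, or 6 of 23 and -0.25 with quantile normalization), with Sdf2 at 0.74 and Sil1, an exchange factor of BiP, at 0.59. In FDG-decreased against FDG-increased ileum 15 of 23 were higher (median 0.06), beside 55.2% of all genes. P4hb, protein disulfide isomerase, averaged 721 ± 31.4 FPKM in FDG-decreased and 523 ± 73.7 FPKM in FDG-increased ileum, and Pdia5 differed by 0.22. P4hb was the 1 gene of the 23 whose groups did not overlap, and the share of all genes with that pattern was not counted. Among 13 ER stress sensors and their processing enzymes, 9 were higher in FDG-decreased than in FDG-increased ileum (median 0.06), with Creb3l3 at 0.99 and Creb3l2 at 0.44. Against sham, 7 were higher in FDG-increased ileum (median 0.00, or 3 of 13 and -0.09 with quantile normalization), with Creb3l4 at 0.40 and Mbtps2 at -0.55.

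Among 14 genes of ER-associated degradation, 12 were higher in FDG-increased than in sham ileum (median 0.27, or 8 of 14 and 0.06 with quantile normalization), with Vimp at 0.75 and Selk at 0.60. In FDG-decreased against FDG-increased ileum 10 were higher (median 0.03), with Derl3 at 0.34 and Syvn1 at 0.17. Of 21 genes of translocation, glycosylation and ER export, 15 were higher in FDG-increased than in sham ileum (median 0.19, or 5 of 21 and -0.14 with quantile normalization), with Ssr4 at 0.65 and Sec31a at -0.61. The same number was higher in FDG-decreased than in FDG-increased ileum (median 0.06), with Sec31a at 0.39 and Lman1 at 0.29. Of 7 genes of the mitochondrial unfolded protein response, 4 were higher in FDG-increased than in sham ileum (median 0.11, or 1 of 7 and -0.26 with quantile normalization), with Hspe1 at 0.90 and Afg3l2 at 0.27. In FDG-decreased against FDG-increased ileum 6 were higher (median 0.03), with Dnaja3 at 0.21 and Hspe1 at -0.21.

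The cytosolic heat shock genes, which HSF1 drives apart from both arms, had larger median differences than any ER list. All 11 were lower in FDG-decreased than in FDG-increased ileum (median -0.77), beside 44.8% of all genes. With the replicate block 6 were called lower, beside 0.689% of all genes: Cryab, Bag3, Hspa1b, Hspb1, Dnajb1 and Dnajb4. Without pair 1 none of these 6 was called (limma adjusted p of 0.0676 to 0.525 by Benjamini-Hochberg), and with no filter on low values 1 was, Hspb1. All 11 were higher in FDG-increased than in sham ileum (median 1.63, or 1.42 with quantile normalization), beside 64.7% of all genes, and 8 of them had all FDG-increased libraries above all sham libraries, beside 10.7% of all genes. Hspa1b, an inducible HSP70, averaged 59 ± 53.5 FPKM in FDG-decreased and 129 ± 62.8 FPKM in FDG-increased ileum, and 135 ± 60.9 FPKM in FDG-increased and 8.51 ± 6.56 FPKM in sham ileum (SD, n = 3 each). Reads of Hspa1b and its near-identical copy Hspa1a may be split by the counting, so the level of either is uncertain. Dnajb1 had a limma adjusted p of 0.096 by Benjamini-Hochberg against sham, at a log2 difference of 2.03, and Hspb1 one of 0.128, at 2.53. The comparisons share FDG-increased libraries, so their directions are not independent.

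**Figure D3:**
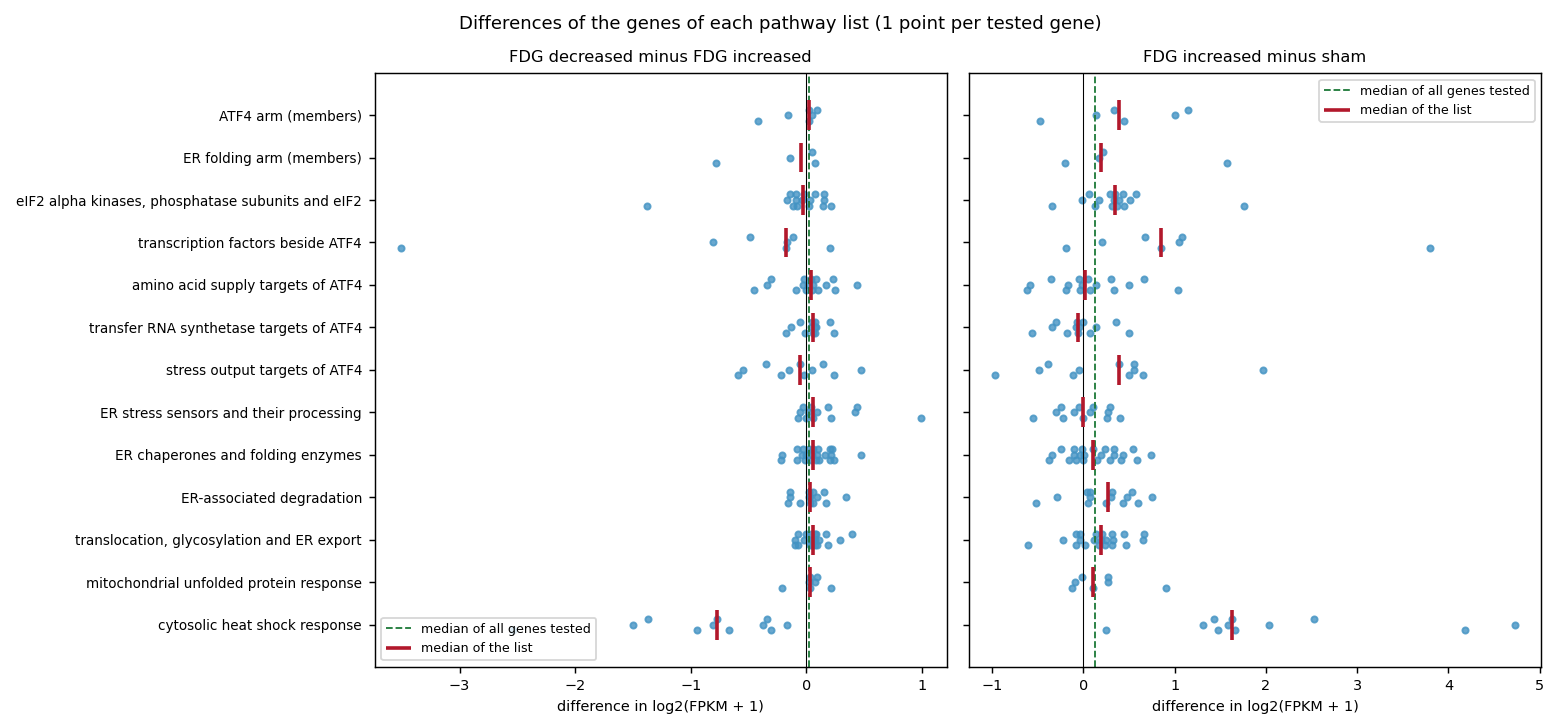
Log2 difference of each tested gene (points) and list median (vertical bars) for the 10 members by arm and for 11 further pathway lists, FDG decreased against FDG increased on the left and FDG increased against sham on the right. Dashed lines mark the median of all genes, 0.02 and 0.13. The heat shock genes lie to the left in the first panel (median -0.77) and to the right in the other (median 1.63).

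Several other groups of genes moved with the same samples, given here without the alternative normalizations. Their counts of genes higher against sham stand beside 64.7% of all genes, a share that was 46.9% with quantile normalization. Immediate-early genes, which many stimuli induce within minutes and which here include Atf3, had a summed level of 1005 to 1947 FPKM in FDG-increased and 339 to 551 FPKM in sham libraries, with 16 of 17 tested genes higher. Paneth cell markers summed to 23758 to 36138 FPKM in FDG-increased and 9008 to 21330 FPKM in sham libraries (7 of 7 higher, with Defa5, Defa7 and Defa10 under 0.1 FPKM in all columns). Goblet cell markers summed to 7174 to 11152 FPKM in FDG-increased and 2864 to 6859 FPKM in sham libraries (8 of 9 higher). Markers of T and NK cells summed to 128 to 230 FPKM in FDG-increased and 51.6 to 96 FPKM in sham libraries (10 of 11 higher). For macrophages and dendritic cells the sums were 352 to 533 FPKM in FDG-increased and 125 to 285 FPKM in sham libraries (9 of 11 higher), and for B and plasma cells 171 to 181 FPKM in FDG-increased and 85.1 to 135 FPKM in sham libraries (5 of 6 higher).

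Ileal enterocyte markers summed to 17096 to 24491 FPKM in FDG-increased and 249 to 11853 FPKM in sham libraries (3 of 4 higher). Sums overlapped between FDG-increased and sham libraries for smooth muscle (5 of 10 higher), adipocyte (0 of 7) and enterocyte markers (7 of 9). They also overlapped for proximal intestine (2 of 6), erythroid (0 of 3) and pancreatic acinar cell markers (1 of 2). The FDG-increased library that the RYGB table alone holds lay above the sham ranges for immediate-early genes (585 FPKM), Paneth cell (24394 FPKM) and goblet cell markers (10120 FPKM). It lay within the sham ranges for ileal enterocyte (7763 FPKM) and B and plasma cell markers (105 FPKM). For T and NK cell (24 FPKM) and macrophage and dendritic cell markers (44.9 FPKM) it lay below the sham ranges. In FDG-decreased and FDG-increased libraries of the RYGB table the sums of every marker list overlapped, but several differed the same way in all 3 pairs. Immediate-early genes there summed to 327 to 666 FPKM in FDG-decreased and 585 to 1944 FPKM in FDG-increased libraries, with 1 of 17 higher, and the FDG-decreased library of each pair held 0.343, 0.38 and 0.559 of its partner's sum. Ileal enterocyte, goblet, Paneth, B and plasma cell and smooth muscle sums were also lower in all 3 pairs. The ratios were 0.737 to 0.835 for ileal enterocyte and 0.745 to 0.99 for Paneth cell markers. Gene by gene, 1 of 4 ileal enterocyte, 1 of 9 goblet and 1 of 7 Paneth cell markers were higher in FDG-decreased ileum. So were 4 of 10 smooth muscle and 5 of 7 B and plasma cell markers, and the last sum thus went against most of its genes. Enterocyte markers (1.27 to 1.77 times the partner) and proximal intestine markers (1.19 to 2.61 times) were higher in all 3 pairs. The part of these differences in the values of Atf4, Ddit3 and Dnajb9, the paired call of Dnajb9 included, was not tested.

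**Figure D4:**
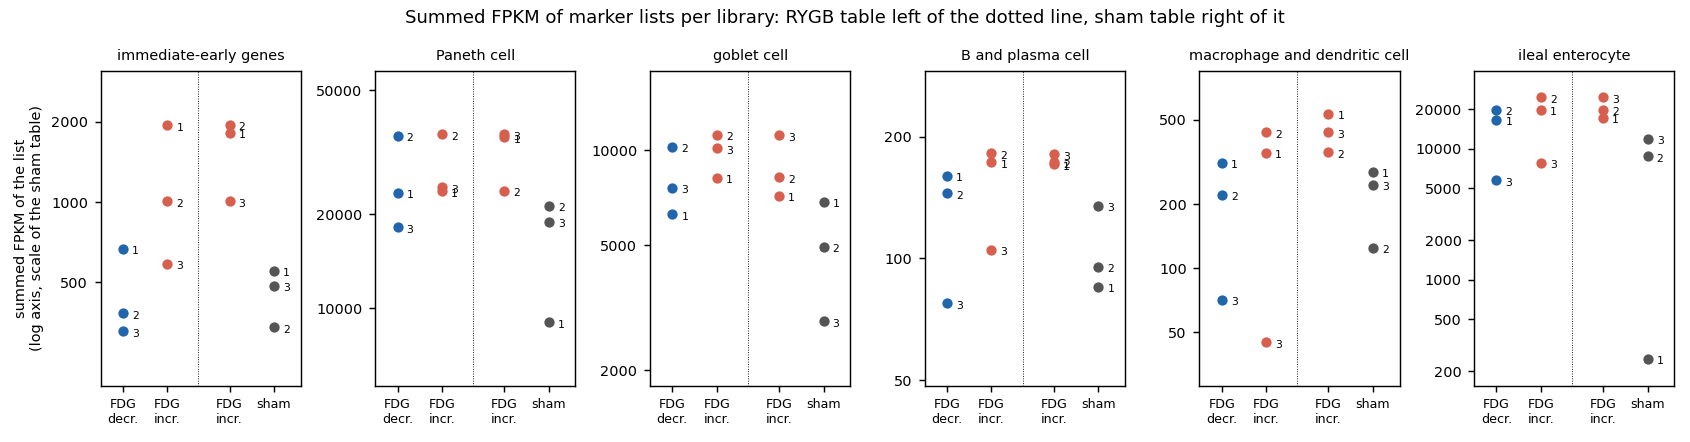
Summed FPKM of cell type marker and immediate-early gene lists in each library, on the scale of the sham table (log axis), with FDG-decreased, FDG-increased and sham libraries from left to right. FDG-increased libraries of the sham table lie above sham libraries for each of the 6 lists drawn, and sham replicate 1 is the lowest for ileal enterocyte markers at 249 FPKM. Smooth muscle, adipocyte, enterocyte, proximal intestine, erythroid and pancreatic acinar cell lists, whose sums overlap between these groups, are not drawn.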

How the data were processed

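The authors deposited 2 tables of FPKM per gene, and the submitters' processing notes name STAR 2.6.0a, Cufflinks 2.2.1, Cuffdiff, DESeq2 1.24.0 and bcl2fastq 1.8.4. Settings, and whether strand was used in counting, were not given in the sources used here. A human build, hg19, is listed there although the symbols are those of rat, so no coordinates come from the files. Of the sample columns 0 were left unused, and 25 rows whose symbols had become dates were dropped.

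FPKM values were turned to log2(FPKM + 1), and genes averaging 1 FPKM or more across a table's 6 columns were tested with limma 3.58.1 in R 4.3.3 (trend and robust variance, Benjamini-Hochberg over all genes, threshold 0.05). The fold changes understate those of low genes. The script was tested on simulated data. Samples were grouped by their labels. Same-numbered libraries of the RYGB table deviated together (correlations of 0.85, 0.76 and 0.77), so the fit with a replicate block is given beside the one without it. In the sham table they did not (0.35, -0.50 and -0.25). The columns of FDG-increased libraries there carry a column number only. FDG decreased against sham is given as values. The alternatives were the replicate block, other pseudocounts, filters and scalings, the lane, and leaving out each replicate. The lane as a term was fitted on replicates 1 and 2, where it equals the pair. Lane 7 alone leaves 1 FDG-increased column.

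The members, the pathway lists and the marker lists were chosen with earlier results of these data known. Named are all members, the 2 genes of each pathway list with the smallest unadjusted p per comparison, called genes of a list, and the 3 genes most like Atf4 and Hspa5 by the lower correlation of the tables. Promoter windows came from RefSeq (GRCr8).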

Additional observations from a re-analysis of the deposited data

How the results depend on the processing

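Of 348 recomputed values of the 10 genes, 95 with a replicate left out and 206 under other settings kept direction and side of the threshold. The 5 that passed the threshold were Dnajb9 with the replicate block, alone or joined to another setting, or with the lane as a term. The lane term was fitted on replicates 1 and 2, whose lanes follow the pairs. It is therefore the block without pair 3, and not a separate adjustment for lane. The changes of direction below are all of values that were not called without the block, and the cause was not tested. Between FDG-decreased and FDG-increased ileum, Chac1 was -0.04 with quantile normalization, with or without the block, and -0.07 with the lane as a term, and Sdf2l1 was -0.23 with the lane. With a replicate or pair left out, log2 differences ran from -0.73 to 0.25 for Ddit3, -0.31 to 0.36 for Trib3, -0.28 to 0.37 for Asns, -0.12 to 0.22 for Chac1, -0.05 to 0.18 for Sesn2, -0.33 to 0.14 for Hspa5, -1.43 to 0.01 for Dnajb9, -0.27 to 0.42 for Herpud1 and -0.20 to 0.39 for Sdf2l1. With the block and without pair 2, Ddit3 was 0.02, Asns -0.13 and Sesn2 -0.03. Between FDG-increased and sham ileum, quantile normalization gave -0.02 for Asns, -0.26 for Hspa5 and -0.17 for Herpud1. Lane 7 alone leaves 1 FDG-increased column against the sham libraries. By the column numbers of the sham table, whose lanes are not given, it gave -0.15 for Asns, -0.12 for Hspa5, -0.21 for Herpud1 and 0.12 for Sdf2l1. By those of the RYGB table it gave -0.14 for Asns and -0.12 for Hspa5. With a replicate left out they ran from -0.34 to 0.93 for Trib3, -0.14 to 0.46 for Asns, -0.12 to 0.32 for Hspa5 and -0.45 to 0.04 for Sdf2l1.

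Counts of called genes moved more. Between FDG-decreased and FDG-increased ileum, limma called 0 genes (110 at an unadjusted p under 0.05), but 122 with the replicate block, and with that block 101 after scaling to the same median, 123 with a pseudocount of 0.1, 32 with no filter, 90 with quantile normalization, 35 without pair 1 and 415 without pair 2. Replicates 1 and 2 with the lane as a term, in effect the block without pair 3, gave 346. Leaving out replicates gave 0 to 415 with and without the block. Between FDG-increased and sham ileum the 4 calls became 1 with a pseudocount of 0.1, 0 with no filter, 1 with the same median and 0 with quantile normalization. They became 39 with the replicate block, whose numbers do not pair these samples. Leaving out replicates gave 0 to 13. The ATF4 arm median was 0.60 in lane 7 by the numbers of the RYGB table, with 1 FDG-increased column, and 0.32 to 0.74 with a replicate left out. Outside Dnajb9, the block changed no member's call.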
